A study of Mus musculus with 11 samples.

Results

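Ifit1, Ifit2 and viperin are antiviral effectors that type I interferon switches on, and they were chosen by name from the deposited table, where they are 3 of 93 genes. Type I interferons bind a receptor that most cells carry, and the signal from it turns on a broad set of interferon-stimulated genes. Ifit1 and Ifit2 encode related RNA-binding proteins that restrict translation of foreign RNA, while viperin, the product of the gene Rsad2, is a radical SAM enzyme that makes a chain-terminating nucleotide. cGAS senses cytosolic DNA and signals through STING to induce type I interferon, and these genes are widely used as a readout of that response.

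RNA from the spleens of 11 female mice was counted with a custom NanoString nCounter probe set, in which color-coded probes hybridize to each RNA and are counted without amplification. The mice fall into 5 groups by their labels. WT/Mrl (3 mice) and cGAS/Mrl (4 mice) are on the lupus-prone MRL background. The methods of the study give this background as MRL/MpJ-Fas lpr, which carries the Fas lpr mutation in both groups, and give the cGAS deletion as CRISPR/Cas9 removal of exon 2, whereas the labels write neither Fas lpr nor KO for these mice. WT/B6 (1 mouse) and cGAS KO /B6 (1 mouse, from a line started from EUCOMM embryos) are uninjected C57BL/6 mice, and WT/B6 DMXAA injected (2 mice) received DMXAA, which binds and activates STING of the mouse. The sources used here give ages for other assays of the study, but not by name for the mice counted here, and they do not give the dose and time of DMXAA. The panel has no probe for cGAS, and the deletion was not checked in these data. The study reports a PCR check of the Mrl deletion and no detectable cGAS protein in bone marrow derived macrophages of that line.

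The deposited signal of each mouse is a single factor times a whole count, and the counts recovered from it are used here. The total recovered count was 28406 to 58404 in the 7 Mrl mice, 3612 in the WT/B6 mouse, 12386 in the cGAS KO /B6 mouse, and, after DMXAA, 647148 and 600677. The factor was 0.670 to 1.36 in the Mrl mice, 0.0823 in the WT/B6 mouse, 0.297 in the cGAS KO /B6 mouse, and, after DMXAA, 1.61 and 1.64. The deposited signal thus sets the uninjected B6 mice further below the others than the counts do, and why the totals differ was not tested. Since all genes of a mouse move with its total, each gene was read as a relative level, the log2 of its count plus 1 minus the median of that value over the 93 genes in the same mouse. A level of 0 is thus the middle of the panel. The panel median was a count of 21 in the WT/B6 mouse and 36 in the cGAS KO /B6 mouse, against 106 to 207 in the Mrl mice and, after DMXAA, 681 and 605. Mean values are given ± SD, and the single uninjected B6 mice have no replicate. Each p measures the spread between these mice only.

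The recovered count of viperin was 1221, 1973 and 2748 in the WT/Mrl mice, 1680, 1817, 1305 and 1545 in the cGAS/Mrl mice, 114 in the WT/B6 mouse, 657 in the cGAS KO /B6 mouse, and, after DMXAA, 181097 and 174684. In this order, the relative level was 3.51, 3.50 and 3.72, then 3.46, 3.16, 3.09 and 3.20, then 2.39, then 4.15, and finally 8.05 and 8.17. viperin was therefore above the panel median in all 11 mice, lowest in the WT/B6 mouse and highest in the DMXAA-injected mice, with the cGAS KO /B6 mouse above every Mrl mouse. By count it ranked 8 to 11 of 93 in the Mrl mice, 6 in the WT/B6 mouse, 4 in the cGAS KO /B6 mouse, and 1 in both DMXAA-injected mice. Each probe has its own efficiency, so that only the change of this rank between mice is read.

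Ifit2 had counts of 64, 153 and 186 in the WT/Mrl mice, 132, 129, 115 and 123 in the cGAS/Mrl mice, 9 in the WT/B6 mouse, 39 in the cGAS KO /B6 mouse, and, after DMXAA, 30190 and 24734. Its relative level was -0.72, -0.18 and -0.15, then -0.20, -0.64, -0.40 and -0.44, then -1.14, then 0.11, and finally 5.47 and 5.35. Ifit2 thus lay just under the panel median in the Mrl mice, whose genotypes overlapped, below all of them in the WT/B6 mouse and above all of them in the cGAS KO /B6 mouse. The order of the groups was the same as for viperin apart from the overlap of the Mrl genotypes.

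Ifit1 had counts of 26, 51 and 73 in the WT/Mrl mice, 37, 58, 36 and 30 in the cGAS/Mrl mice, 11 in the WT/B6 mouse, 15 in the cGAS KO /B6 mouse, and, after DMXAA, 58669 and 55296. Its relative level was -1.99, -1.75 and -1.49, then -2.01, -1.78, -2.05 and -2.44, then -0.87, then -1.21, and finally 6.43 and 6.51. Ifit1 was under the panel median in all 9 mice without DMXAA. The Mrl genotypes overlapped, and both uninjected B6 mice lay above all 7 Mrl mice. The counts behind the B6 values were small, with 95% Poisson intervals of 5.49 to 19.7 in the WT/B6 and 8.40 to 24.7 in the cGAS KO /B6 mouse. They were 4.23 and 3.95 times the mean of the 5 lowest counts of the same mouse, against 6.52 to 8.23 times in the Mrl mice, and how much of them is background was not tested.

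**Figure D1:**
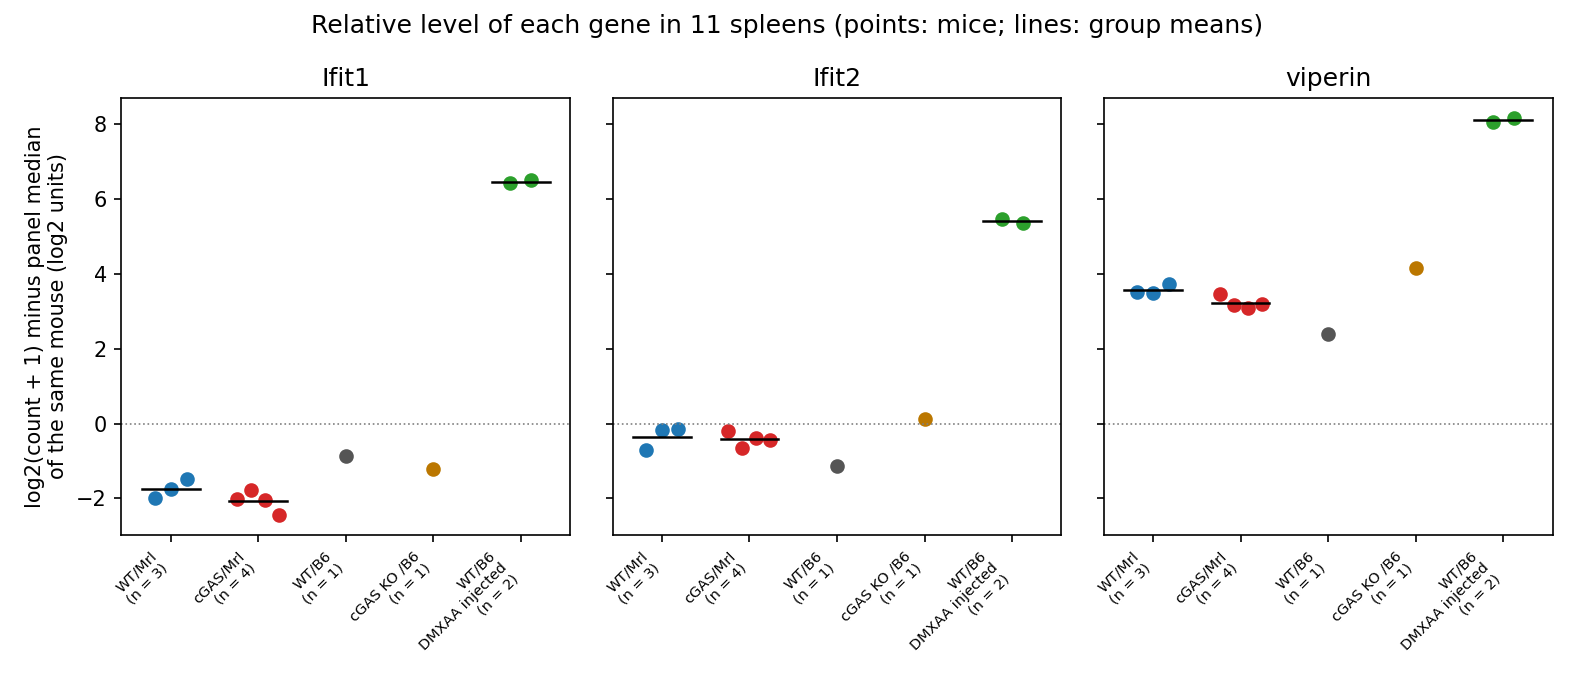
Relative level of Ifit1, Ifit2 and viperin in log2 units (vertical axis, log2 of the count plus 1 minus the panel median of the same mouse) in the 5 groups, with points for mice and lines for group means. The DMXAA-injected mice lie between 5.35 and 8.17, above all other mice, and viperin is the gene for which the 4 cGAS/Mrl mice (3.09 to 3.46) lie below the 3 WT/Mrl mice (3.50 to 3.72).

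The comparison of cGAS/Mrl with WT/Mrl mice asks whether lupus-prone mice need cGAS for this expression. The relative level of viperin was 3.23 ± 0.16 in cGAS/Mrl (n = 4) and 3.58 ± 0.13 in WT/Mrl mice (n = 3). Ifit1 was at -2.07 ± 0.27 and -1.74 ± 0.25, and Ifit2 at -0.42 ± 0.18 and -0.35 ± 0.32, in the same order. With limma, the difference was -0.35 for viperin (standard error 0.14, 95% confidence interval -0.66 to -0.04), -0.33 for Ifit1 (standard error 0.19, interval -0.75 to 0.10) and -0.07 for Ifit2 (standard error 0.18, interval -0.47 to 0.34). None of the 3 genes passed the threshold, an adjusted p of 0.05 with Benjamini-Hochberg adjustment over 93 genes, and 0% of the panel did (adjusted p = 0.997 for each of the 3 genes, from limma). viperin was the single panel gene with an unadjusted p under 0.05, where voom gave 4 such genes and 0 calls. Fewer cells of a type that expresses these genes and less RNA per cell cannot be told apart in whole spleen.

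The 4 cGAS/Mrl mice had lower relative levels of viperin than all 3 WT/Mrl mice, and Ifit1 and Ifit2 overlapped. Of the 93 genes, 3.23% did not overlap between the genotypes in either direction and 2.15% were lower in this way, namely viperin and duba, while cxcl10 was higher. With 3 against 4 mice, the exact Mann-Whitney test (two-sided) cannot give a p below 0.0571, which is the value for viperin (0.979 after adjustment over 93 genes). Exact p was 0.114 for Ifit1 and 0.629 for Ifit2. The separation of viperin depended on the scale. As a share of the panel total, viperin was 4.30%, 3.93% and 4.71% in WT/Mrl and 4.01%, 3.16%, 3.02% and 3.28% in cGAS/Mrl mice, so that cGAS/Mrl mouse 1 lay above WT/Mrl mouse 2.

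Other interferon-stimulated genes of the panel lay on both sides of 0 in this comparison. Of the 21 others on a list of such genes, 15 had a difference above 0 and 6 did not, against 42 of the 93 panel genes above 0. With limma 0 of the 21 passed the threshold and 0 had an unadjusted p under 0.05, with a median difference of 0.04 against -0.01 over the 93 genes. The chemokines cxcl10 (0.31, standard error 0.15) and cxcl9 (0.24, standard error 0.15) were at the upper end of the list, and the RNA sensor lgp2 (-0.24, standard error 0.16), the RNA editing enzyme adar (-0.14, standard error 0.12) and the transcription factor Irf7 (-0.08, standard error 0.21) at the lower end. viperin ranked 6 and Ifit1 ranked 7 of 93 from the lowest difference. Whether the 3 genes differ from the rest of the list was not tested.

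DMXAA-injected mice were compared with the WT/B6 mouse to ask how far these genes differ after injection of a STING agonist. The WT/B6 mouse was uninjected, so that the injection and the agonist cannot be told apart. All 3 were far higher, Ifit1 by 162-fold, Ifit2 by 93.5-fold and viperin by 52.9-fold relative to the panel median. The log2 differences were 7.34 for Ifit1 (standard error 0.28, adjusted p = 7.48e-09), 6.55 for Ifit2 (standard error 0.27, adjusted p = 1.21e-08) and 5.73 for viperin (standard error 0.20, adjusted p = 5.97e-09), all from limma. The 3 genes were thus all called higher, as were 37.6% of the 93 genes (35, with 47 lower). They ranked 1, 4 and 7 from the highest difference. The panel calls depend on the scale. By share of the panel total 11 were higher and 74 lower, and on the deposited scale 93 were higher. The panel median of the difference was -3.49 and 7.87 on these scales, against -0.93 on the relative scale. This fit assumes that the lone WT/B6 mouse varies as much as replicated mice do. Its counts of 11, 9 and 114 for Ifit1, Ifit2 and viperin make the size of each rise uncertain. With both uninjected B6 mice as the control, the differences were 7.51, 5.92 and 4.84.

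The genes for type I interferon itself rose in the same mice. Ifnb1 went from a count of 17 in the WT/B6 mouse to 47509 and 38759 (log2 difference 6.35, standard error 0.31). Ifna4 went from 14 to 4528 and 4108 (3.30, standard error 0.46). The WT/B6 counts were 6.54 and 5.38 times the mean of the 5 lowest counts of that lone mouse. The size of each rise is therefore uncertain, and the part of background in these counts was not tested. Of the 21 other interferon-stimulated genes, 14 were called higher, 2 lower and 5 were not called, with a median difference of 1.57 against -0.93 over the panel. Among them cxcl10 (7.28), ccl5 (3.53) and socs1 (3.49) had the largest differences, and cxcl10 alone exceeded viperin. The myeloid nuclear antigen gene mnda was the lowest (-4.35, standard error 0.43). Its mean relative level was 0.18 in WT/B6 and -4.16 after DMXAA. The panel median it is set against was a count of 21 in WT/B6 and of 681 and 605 after DMXAA. This fall is therefore relative to the panel, and no gene was lower on the deposited scale.

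The 3 genes together took up 41.7% and 42.4% of all recovered counts in the DMXAA-injected mice. In the Mrl mice the summed share was 4.62%, 4.33% and 5.15% (WT/Mrl) and 4.41%, 3.48%, 3.37% and 3.60% (cGAS/Mrl), and in the WT/B6 and cGAS KO /B6 mouse it was 3.71% and 5.74%. The summed share of the 3 genes in the injected mice was thus several times that in any other mouse, while the 9 other mice lay close together. viperin alone held 28.0% and 29.1%, Ifit1 9.07% and 9.21%, and Ifit2 4.67% and 4.12%. For Ifit1 the share in the other mice was between 0.0636% and 0.305%, and the highest of these was the WT/B6 mouse, with an exact Clopper-Pearson 95% interval of 0.152% to 0.544%. For Ifit2 it was between 0.224% and 0.318%, so that no uninjected B6 mouse lay outside the Mrl range by this measure. The 21 other interferon-stimulated genes together held 26.8% and 27.2% in the injected mice, below the 47.2% to 52.8% in the Mrl mice and the 31.6% and 36.5% in the uninjected B6 mice. A share falls when other genes rise, so these values do not show that the other genes were lower.

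**Figure D2:**
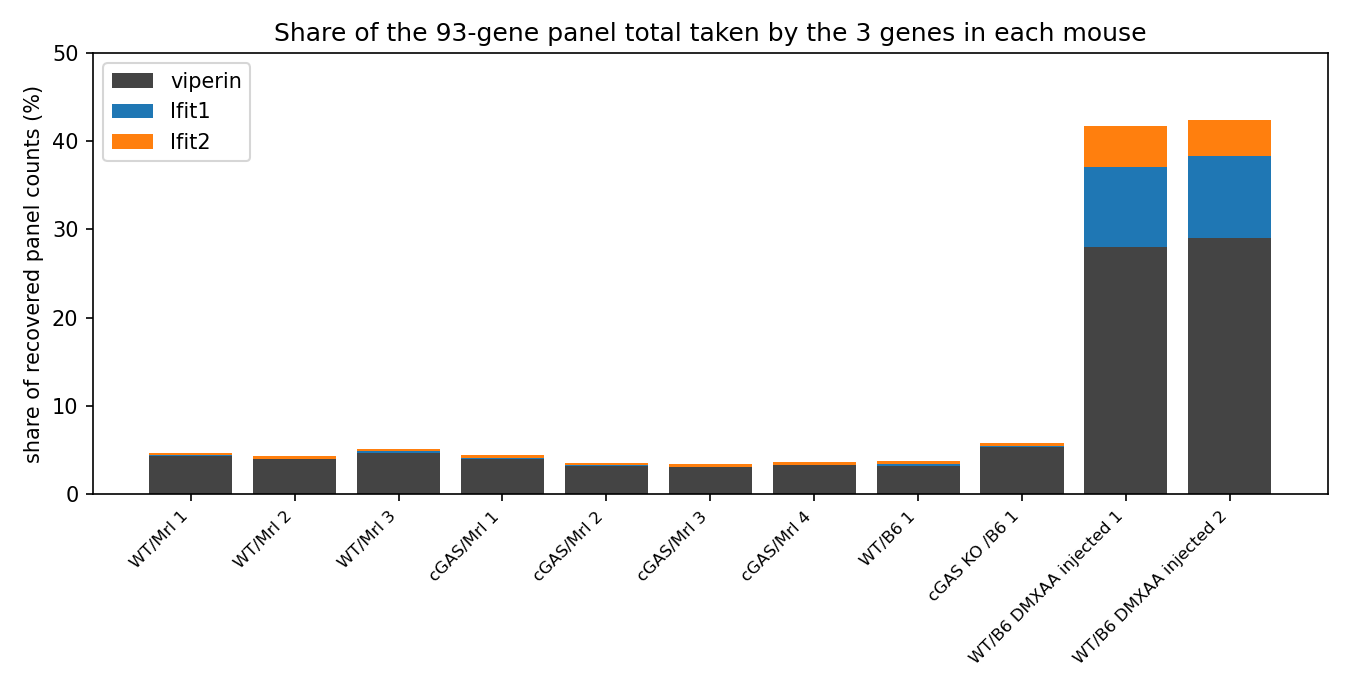
Share of the recovered counts of all 93 genes (vertical axis, percent) taken by viperin, Ifit1 and Ifit2, stacked, in each of the 11 mice. The sum is 41.7% and 42.4% in the DMXAA-injected mice and 3.37% to 5.74% in the 9 other mice, and viperin is the larger part in every mouse.

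The next comparison asks whether the level of these genes in lupus-prone spleen reaches that after DMXAA. Against WT/Mrl mice, the DMXAA-injected mice were higher by log2 differences of 8.21 for Ifit1 (standard error 0.21), 5.76 for Ifit2 (standard error 0.20) and 4.53 for viperin (standard error 0.15), that is 297-fold, 54.3-fold and 23.2-fold. The size depends on the scale, and over all alternatives run the log2 differences were 6.41 to 10.89, 3.96 to 8.44 and 2.73 to 7.22. All 3 genes were called higher with limma, as were 33.3% of the panel (adjusted p of 2.80e-10, 1.92e-09 and 1.69e-09). They ranked 2, 6 and 10 of 93 from the highest difference. Ifnb1 was also higher, but its counts in the WT/Mrl mice were 10, 13 and 12. These were 2.78, 2.10 and 1.33 times the mean of the 5 lowest counts of the same mouse, so that its size and rank are not read. Strain and injection cannot be told apart here, and this comparison shares the injected mice with the one before it and the WT/Mrl mice with the comparison of genotypes. Relative to the panel median, 11 of the 21 other interferon-stimulated genes were called higher and 9 lower, against 31 and 50 of the 93 genes. The panel calls were 52 higher and 5 lower on the deposited scale and 15 and 69 by share of the panel total. The panel median of the difference was 1.84 and -2.65 on these scales, against -0.84 on the relative scale. cxcl10 (5.26) and Ifi204 (3.49), a DNA-binding PYHIN protein, were higher on the relative scale, and cxcl9 (-2.10, standard error 0.16) was lower. The mean deposited signal of cxcl9 was instead higher in the injected mice, 2983 against 2346, so that its direction depends on the scale.

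Mrl mice were also compared with the uninjected B6 mice, to ask whether these genes differ between lupus-prone and B6 spleen. Strain, the Fas lpr mutation, disease and cell makeup of the spleen cannot be told apart in this comparison. As a mean over both genotypes of each background, Ifit1 differed by -0.86 in log2, lower in Mrl mice (limma, adjusted p = 0.00223, standard error 0.18). Ifit2 (0.13, standard error 0.18, adjusted p = 0.545) and viperin (0.13, standard error 0.13, adjusted p = 0.398) did not pass. So 1 of the 3 genes was called, as were 68.8% of the panel in either direction and 40.9% as lower. Ifit1 did not overlap between the backgrounds, like 48.4% of the 93 genes, and the exact Mann-Whitney p of 0.0556 is the smallest that 7 against 2 mice can give. On the deposited scale, where the panel median of the difference was 4.84 in place of -0.07, Ifit1 was higher in Mrl mice by 3.79. With voom its adjusted p was 0.0975 (1.64e-10 to 0.0975 over all alternatives). Its direction is therefore relative to the panel and depends on the scale.

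The mean over both B6 mice hides opposite differences for viperin and Ifit2. Relative to the WT/B6 mouse alone, WT/Mrl mice were higher by 1.19 for viperin and 0.79 for Ifit2. Relative to the cGAS KO /B6 mouse alone, cGAS/Mrl mice were lower by log2 differences of -0.92 for viperin and -0.53 for Ifit2. Ifit1 was lower in both (-0.87 and -0.86). Each of these comparisons has 1 B6 mouse, whose spread is taken from the other groups, so that they are given as sizes only. They are 2 of the 20 alternatives to the mean over both backgrounds, whose adjusted p ran from 3.46e-18 to 0.956 (viperin), 1.64e-10 to 0.0975 (Ifit1) and 2.08e-15 to 0.918 (Ifit2), and no further alternative was run on either. The Mrl genotype and the B6 mouse change together between them, so that their parts cannot be told apart.

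Other interferon-stimulated genes were mostly higher in Mrl mice relative to the panel median. Of the 21, 13 were called higher and 3 lower, against 26 higher and 38 lower of the 93 genes, with a median difference of 0.68 against -0.07 over the panel. On the deposited scale all 93 genes were called higher. Those of the 21 called higher include cxcl9 (3.98, standard error 0.14), the interferon-inducible GTPase gene Ifi47 (2.47, standard error 0.12) and cxcl10 (1.19, standard error 0.14). For cxcl10 the WT/B6 mouse (-0.37) lay below the Mrl range of 1.60 to 2.17 and the cGAS KO /B6 mouse (1.61) within it. The 3 called lower were mnda (-1.41), oas2 (-0.88) and mndal (-0.80). For mndal the WT/B6 mouse (3.69) lay below the WT/Mrl and cGAS/Mrl means (3.84 and 3.87), and the cGAS KO /B6 mouse (5.62) above them. Among those called higher, aim2 and samhd1 were above both Mrl means in the cGAS KO /B6 mouse (2.61 and 2.97). For nlrc5 that mouse (2.66) lay between the means (2.64 and 2.81). For Ifnb1 and Ifna4, which had low counts in both backgrounds, no difference is read. Their counts were 9 to 19 and 3 to 11 in Mrl mice, and 17 and 23 (Ifnb1) and 14 and 11 (Ifna4) in the WT/B6 and cGAS KO /B6 mouse. In the Mrl mice they were 1.33 to 2.78 (Ifnb1) and 0.652 to 1.67 (Ifna4) times the mean of the 5 lowest counts of the same mouse. The part of background signal in such counts was not tested.

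The cGAS-deleted and WT mice were also compared between backgrounds, although B6 has 1 mouse of each genotype. In B6, the cGAS KO mouse exceeded the WT mouse by 3.40-fold for viperin and 2.38-fold for Ifit2 relative to the panel median, and Ifit1 was at 0.793-fold. The difference of the Mrl effect from the B6 effect was -2.12 for viperin (standard error 0.27, adjusted p = 5.43e-04), -1.32 for Ifit2 (standard error 0.35, adjusted p = 0.0174) and 0.01 for Ifit1 (standard error 0.37, adjusted p = 0.983), all log2 values from limma. viperin and Ifit2 were thus called lower in this contrast, as were 28.0% of the 93 genes (26, with 5 higher), and viperin ranked 4 from the lowest. By share of the panel total, 8 genes were called lower and 39 higher, with a panel median of 0.76 in place of -0.25. Of the 21 other interferon-stimulated genes, 9 were called lower and 1 higher, among them mndal (-1.90), nlrc5 (-1.86), samhd1 (-1.74) and, as the one called higher, Ifi204 (1.74). Since the genotype cannot be told apart from the single B6 mice, these calls do not show that the effect of the deletion differs between backgrounds. For Ifit2 it did not pass with the share of the panel total (-0.30, adjusted p = 0.469, where its alternatives run from 0.00430 to 0.469). Ifit1 was called higher by the share of the panel total (1.02, adjusted p = 0.0374) and by the total without the 3 genes (0.98, adjusted p = 0.0477), where its alternatives run from 0.0374 to 0.998.

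Ratios of the genes within a mouse need no scaling, since the factor and the total cancel. Each probe has its own efficiency, so that only the change of a ratio between mice is read, and not its size. The ratio of viperin to Ifit1 was 47.0, 38.7 and 37.6 in the WT/Mrl mice, 45.4, 31.3, 36.3 and 51.5 in the cGAS/Mrl mice, 10.4 in the WT/B6 mouse, 43.8 in the cGAS KO /B6 mouse, and, after DMXAA, 3.09 and 3.16. It was alike in the Mrl mice and the cGAS KO /B6 mouse, lower in the WT/B6 mouse, and lowest in the injected mice. The 95% counting intervals, from exact binomial limits, were 5.58 to 21.3 in the WT/B6 and 26.4 to 78.7 in the cGAS KO /B6 mouse. They cover counting error only. Over the panel, the chi-square between mice of the same group was 2.91 to 27.1 times its degrees of freedom, highest for the DMXAA-injected pair. The counting intervals therefore do not show a difference between these single mice.

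The ratio of viperin to Ifit2 was 19.1, 12.9 and 14.8 in the WT/Mrl mice, 12.7, 14.1, 11.3 and 12.6 in the cGAS/Mrl mice, 12.7 in the WT/B6 mouse, 16.8 in the cGAS KO /B6 mouse, and 6.0 and 7.06 in the injected mice. The ratio of Ifit2 to Ifit1 was 2.46, 3.00 and 2.55, then 3.57, 2.22, 3.19 and 4.10, then 0.818, then 2.60, and finally 0.515 and 0.447 in the same order of groups. Both ratios were lowest in the DMXAA-injected mice. All 3 ratios therefore lay lower in the injected mice than in the 9 other mice, without overlap, which was also true in either direction of 73.8% of the 4278 pairs of panel genes. The counting interval of Ifit2 to Ifit1 in the WT/B6 mouse ran from 0.300 to 2.17, below the ratio of all 7 Mrl mice. It overlapped that of cGAS/Mrl mouse 2 (1.62 to 3.09). Such intervals cover counting error only, so that they do not show a difference between these mice.

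**Figure D3:**
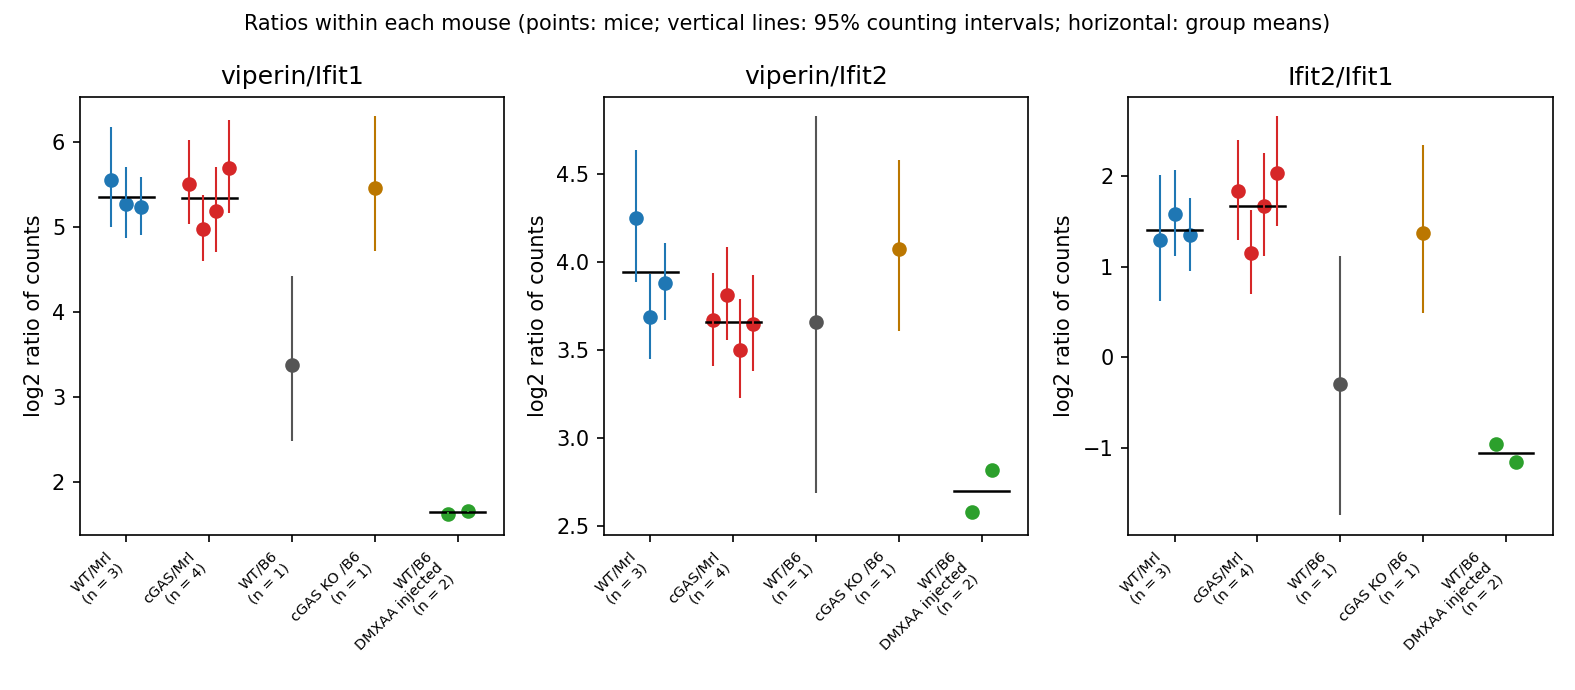
Ratios of the recovered counts within each mouse on a log2 axis for viperin over Ifit1, viperin over Ifit2 and Ifit2 over Ifit1, with points for mice, vertical lines for 95% counting intervals and horizontal lines for group means. In the DMXAA-injected mice all 3 ratios are lowest (log2 1.63 and 1.66, 2.58 and 2.82, and -0.96 and -1.16), and the WT/B6 mouse has the widest intervals.

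The ratios show how unequal the rises of the 3 genes were in the injected mice. Against WT/Mrl mice, where strain and injection cannot be told apart, the ratio of viperin to Ifit1 was 13.1-fold lower in the injected mice (log2 difference -3.71, standard error 0.26, adjusted p = 2.29e-07), that of viperin to Ifit2 2.36-fold lower (-1.24, standard error 0.24, adjusted p = 6.05e-04) and that of Ifit2 to Ifit1 5.54-fold lower (-2.47, standard error 0.28, adjusted p = 1.09e-05), from limma over all 4278 pairs. These 3 calls stand beside 84.8% of all pairs. Against the WT/B6 mouse the differences were -1.73 (adjusted p = 9.04e-04), -0.96 (adjusted p = 0.0167) and -0.77 (adjusted p = 0.0787), so that 2 of 3 ratios were called, beside 82.8% of the pairs. With a pseudocount of 10, the ratio of viperin to Ifit2 in this comparison was -0.00432 and was not called, so that the order of viperin and Ifit2 against the low counts of this mouse depends on the pseudocount. Most pairs of panel genes were thus called in both comparisons, and the change of ratio is not special to these 3 genes.

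Between the Mrl genotypes, the ratios differed by -0.02 (viperin to Ifit1, standard error 0.24), -0.28 (viperin to Ifit2, standard error 0.21) and 0.26 (Ifit2 to Ifit1, standard error 0.25). Leaving out each mouse gave -0.14 to 0.10, -0.41 to -0.13 and 0.14 to 0.44. Of the 3 ratios, 0 were called, as for 0% of the pairs, and 0 did not overlap, where 2.99% of the pairs did not. Exact Mann-Whitney p was 0.857, 0.114 and 0.400. Between Mrl and uninjected B6 mice, the ratios of viperin and of Ifit2 to Ifit1 were higher in Mrl mice by 0.93 (adjusted p = 0.00484) and 1.00 (adjusted p = 0.00491) with limma, while viperin to Ifit2 was not called (-0.07, adjusted p = 0.792). These 2 calls stand beside 66.7% of the pairs. The values of the Mrl mice overlapped those of the B6 mice for all 3 ratios, where 51.9% of the pairs did not overlap. For the 2 called ratios the WT/B6 mouse lay below the Mrl range and the cGAS KO /B6 mouse within it. In the contrast of the cGAS effects, which rests on the single B6 mice, viperin to Ifit1 was called lower (-2.10, standard error 0.46, adjusted p = 0.0103 from limma), as for 26.1% of the pairs. It was not called for viperin to Ifit2 (-0.69, adjusted p = 0.244) or Ifit2 to Ifit1 (-1.40, adjusted p = 0.0595).

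Likeness of pattern was measured as the SD of the within-mouse log2 ratio to each other gene with a mean count of 20 or more in the mice used. Over all 11 mice the injected mice enter both the mean count and the SD, so that a shared rise in these 2 mice weighs heavily, and Ifnb1, with counts of 9 to 23 in the 9 other mice, is kept through them. On this measure, viperin was most like Ifit2 (0.49), cxcl10 (0.58) and tnfa (0.59), and Ifit2 was most like tnfa (0.41), viperin (0.49) and cxcl10 (0.55). For Ifit1 the nearest gene was the chemokine gene ccl4 (0.30), followed by Ifnb1 (1.03) and Ifit2 (1.12). Ifit1 ranked 23 of 82 genes in likeness to viperin (1.53) and 6 in likeness to Ifit2, and viperin ranked 7 in likeness to Ifit1. Median SD over the 82 genes was 2.23 for viperin, 2.63 for Ifit2 and 3.64 for Ifit1.

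Within the 7 Mrl mice the 3 genes were not each other's nearest. viperin was most like duba (0.13), rybp (0.17) and myd88 (0.17), Ifit2 was most like dusp6 (0.12), Irf2 (0.13) and adar (0.14), and Ifit1 was most like rybp (0.19), Il12a (0.21) and Il-1a (0.23). Among 80 genes, Ifit2 ranked 20 and Ifit1 ranked 21 in likeness to viperin (SD 0.24 for both), against a median SD of 0.31. In likeness to Ifit1, viperin ranked 6 and Ifit2 ranked 25, and in likeness to Ifit2, viperin ranked 23 and Ifit1 ranked 44. The SDs include counting error, which is largest for Ifit1 at 26 to 73 counts.

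Since the 3 genes rose together after DMXAA, the RefSeq promoters were searched for the core of the interferon-stimulated response element, to which interferon-activated transcription factors bind. The search took GAAANNGAAA, read on both strands, in the 250 bases before each start of transcription. Ifit1 and Ifit2 matched by symbol and viperin by its gene Rsad2. The promoter of Ifit1 holds 2 matches, that of Rsad2 holds 1, and the 2 Ifit2 starts of the table hold 0 in this window, which says only that these letters are not there. Of 27025 genes in the table, 3.46% hold a match. The panel shares rest on 63 of the 93 genes, although 89 panel names were paired with a RefSeq symbol. Of these 63 genes, 19.0% hold a match. Of the 17 interferon-stimulated genes among them, the 3 genes included, 41.2% do. A match is a description of the sequence and not evidence of a bound site. The stretch before the start is shown for the 2 genes with matches, in lower case and 5′ to 3′ on the strand of the gene, with the matches in capitals, which appear here in the reverse orientation TTTCNNTTTC. Ifit1 lies at chr19:34640739-34640888 on the plus strand and Rsad2 at chr12:26456453-26456602 on the minus strand of GRCm38.p6.
Ifit1: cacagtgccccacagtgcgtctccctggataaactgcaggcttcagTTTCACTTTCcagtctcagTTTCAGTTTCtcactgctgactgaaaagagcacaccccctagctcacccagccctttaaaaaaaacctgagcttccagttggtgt
Rsad2: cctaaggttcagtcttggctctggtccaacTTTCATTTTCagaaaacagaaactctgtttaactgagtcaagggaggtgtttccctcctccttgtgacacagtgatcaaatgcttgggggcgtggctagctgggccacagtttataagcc
The matches begin 104 and 85 bases before the start of Ifit1 and 120 bases before the start of Rsad2.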

How the data were processed

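The authors hybridized 50 ng of spleen RNA per mouse to a custom nCounter probe set, normalized to housekeeping genes and deposited a linear signal for 93 genes in 11 mice. All 1023 values were whole multiples of a factor per mouse (tolerance 0.0001), and these multiples are the recovered counts. Whether background was subtracted is not given in the sources used here. Relative levels were fitted with limma 3.58.1 (R 4.3.3), with all tests two-sided and p adjusted by Benjamini-Hochberg within each comparison. The Mrl genotypes were fitted over 7 mice and the other comparisons over 11 mice in 5 groups, where the lone B6 mice are assumed to vary like the others. The ratio fits were chosen after seeing the data. Exact tests used SciPy 1.17.1 under Python 3.11.15, and figures Matplotlib 3.10.9. Every pair of mice within a group differed by more than sampling noise (chi-square 2.91 to 27.1 times its degrees of freedom). In 40 simulations, limma called 73.5% of 2-fold changes between the Mrl genotypes and 0.753% of unchanged genes. Their spread was taken over all 11 mice, and counting noise was added to it. Changes as small as the 1.27-fold of viperin were not simulated. Beside the 3 genes, cxcl10, cxcl9, Ifnb1, Ifna4, the 3 largest and 3 smallest differences of the other 21 interferon-stimulated genes in each comparison, and the 3 genes most alike in pattern were named. Genes of this rule that are left out are not reported here. The members and lists were chosen with earlier results of these data known. The lists of T cell, B cell, myeloid, neutrophil, plasmacytoid dendritic, plasma, erythroid and housekeeping genes had 0 genes on the panel, so that cell types could not be checked.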

Additional observations from a re-analysis of the deposited data

Results flagged for a closer look

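How far the cGAS effect in Mrl mice departs from that in B6 mice was tested as an interaction in limma. It passed the threshold for 3 values, as for 31 of the 93 genes and 26.1% of the pairs. It was -2.12 for viperin, -1.32 for Ifit2 and -2.10 for the log2 ratio of viperin to Ifit1. For Ifit2 it missed the threshold under 5 of 18 alternatives. In B6 the cGAS KO mouse had 657 counts of viperin and 39 of Ifit2 against 114 and 9 in the WT mouse, while Ifit1 had 15 and 11. Each B6 genotype is 1 mouse, with a total count of 12386 and 3612, and the part of depth in these differences was not tested. Among the levels, shares, signals and ratios of the 3 genes, 12 values were looked at in the 4 cGAS/Mrl mice, and Dixon's test set 0 of them apart.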

How the results depend on the processing

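Of 475 recomputed values of 36 results, 428 kept their direction and their side of the threshold, where a count of called genes was compared by its total alone, and for the others the cause was not tested. The direction of the panel calls turned with the scale. For Mrl against B6 it was 26 higher and 38 lower, but 93 and 0 on the deposited scale. For the difference of cGAS effects it was 5 and 26, but 39 and 8 by share of the total, 34 and 8 by the total without the 3 genes, and 16 and 13 by median of ratios. After DMXAA against WT/B6 it was 35 and 47, but 42 and 39 by median of ratios, 41 and 37 by the median outside the interferon lists, and 37 and 35 with voom. The 3 genes stayed higher after DMXAA under all alternatives run, by 4.78 to 15.57 (Ifit1), 3.98 to 14.64 (Ifit2) and 3.16 to 14.77 (viperin) against WT/B6. Between the Mrl genotypes viperin ran from -0.43 to -0.27, Ifit1 from -0.45 to -0.20, and 0 genes were called with limma or voom (0 to 4 at an unadjusted p under 0.05). A block for mouse number, which pairs mice by label, gave 0 calls and -0.20, -0.06 and -0.34 for Ifit1, Ifit2 and viperin. Ifit2 was 0.00779 on the deposited scale, 0.000112 among genes with a mean count of 20 or more, and -0.25 to 0.0311 leaving out each mouse. viperin to Ifit1 was -0.14 to 0.10 leaving out each mouse and 0.00352 minus the 5 lowest counts, an alternative chosen after seeing the data, as was the total without the 3 genes.

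For Mrl against B6, the deposited scale (panel median 4.84 in place of -0.07) gave 3.79 for Ifit1, 4.77 for Ifit2 and 5.29 for viperin (all called higher). With voom Ifit1 was -0.65 (not called). Ifit2 and viperin were -0.12 and -0.12 by share of the total (panel median -0.32) and -0.13 and -0.12 by the total without the 3 genes. They were -0.0523 and 0.40 (called) with a pseudocount of 10, and -0.0373 and -0.0292 at a mean count of 20 or more. viperin was -0.0112 minus the 5 lowest counts. For Ifit2 and viperin, WT mice alone gave 0.79 and 1.19 and cGAS-deleted mice alone -0.53 and -0.92, each against 1 B6 mouse. viperin to Ifit2 was 0.46 with a pseudocount of 10.

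For the difference of cGAS effects, viperin kept its call (-4.51 to -1.10). The genes called were 47 by share of the total (panel median 0.76 in place of -0.25) and 12 with voom, from 31. Ifit1 was -1.77 on the deposited scale (panel median -2.01), and 1.02 by share and 0.98 by the total without the 3 genes (both called higher). It was -0.10 by the median outside the interferon lists and -0.11 to 0.13 leaving out each mouse. Ifit2 missed the threshold by share (-0.30), median of ratios (-0.76), pseudocount 10 (-0.87), voom (-0.87) and the total without the 3 genes (-0.35). Ifit2 to Ifit1 was called minus the 5 lowest counts (-1.75) and without cGAS/Mrl mouse 4 (-1.52 to -1.23 leaving out each mouse), and viperin to Ifit2 with a pseudocount of 10 (-1.33). After DMXAA against WT/B6, a pseudocount of 10 gave -0.91 for Ifit2 to Ifit1 (called) and -0.00432 for viperin to Ifit2 (not called), which ran from -1.08 to -0.84 leaving out each injected mouse and missed the threshold without mouse 1 (-0.84). The WT/B6 mouse had the lowest total count, 3612, with 11, 9 and 114 for the 3 genes, and the part of depth was not tested.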
